A study of Mus musculus with 4 samples.

Results

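The 10 genes here were grouped around astroglial coupling, water transport and potassium buffering, and were read on 4 arrays of cultured mouse cortical cells. They were the connexin genes Gja1, Gjb2 and Gjb6, the pannexin genes Panx1 and Panx2, the water channel gene Aqp4, the potassium channel genes Kcnj10 and Kcnj16, and Mlc1 and Hepacam, whose products form a membrane complex at astrocyte junctions. Members were taken by symbol: every probe set whose only platform symbol was one of these names was used, which gave 19 probe sets for the 10 genes, of 34945 probe sets with 1 symbol for 18193 genes in all. All cells came from C57BL6 mice. Neurons were taken from the cortex of 16-day-old fetuses and kept, after plating, at 1% serum and 19.4 mM glucose, and astrocytes were taken from newborn cortex and kept at 10% serum and 33 mM glucose; neither group carried a named allele or drug. Culture time was 7 days for neurons and 20 days for astrocytes in the series text, while the protocol gives 7 to 8 days for all assays. Each group had 2 arrays, which the titles call biological replicates, and cell type, age of the donor, medium and culture time changed together and cannot be told apart.

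As background, astrocytes are joined into networks by gap junctions, channels that connexin hexamers of adjoining cells form end to end, and Gja1 encodes the main astrocytic subunit, Cx43. Pannexins resemble connexins in fold but mostly form channels of a single membrane. In brain, Aqp4 and Kcnj10 products (the latter the inward rectifier Kir4.1) gather on astrocyte endfeet at blood vessels, held by the dystrophin-associated complex, and serve water exchange and uptake of the potassium that active neurons release. Mlc1 encodes a membrane protein that needs the adhesion molecule GlialCAM, the product of Hepacam, to reach cell junctions, and loss of either causes a leukodystrophy with cysts in people.

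Values are MAS5 signals (a probe set summary on a linear scale). Replicates correlated at 0.977 (neurons) and 0.978 (astrocytes) across probe sets on the log2 scale, against 0.827 to 0.834 between the cultures; probe sets are not independent replicates. The highest signal of 27 control probe sets for Bacillus subtilis transcripts, used here as the background, lay between 15 and 23 over the arrays. Neuron markers separated the cultures: all 12 were higher in neurons, with summed signals of 35402 and 35036 there and 3182 and 2980 in astrocytes, and the neuronal tubulin gene Tubb3 had signals of 2875 and 3021 against 68 and 63. Stmn2 (5727 and 6022 against 1465 and 1485) and Map2 (4706 and 4989 against 1487 and 1269) kept some signal in astrocytes, while Gap43 (5545 and 5857 against 45 and 43) and Snap25 (4360 and 3813 against 1 and 2) kept little or none above background. Astrocyte markers other than the 10 genes had summed signals, mostly from a few bright genes, of 20863 and 20616 in neurons and 33503 and 36028 in astrocytes. Astrocytes had the higher level for 11 of the 19 astrocyte markers tested and neurons for 6, and the remaining 2 missed the threshold. Of all genes tested, 31.1% were higher in astrocytes and 31.0% in neurons. The neuron markers fit the labels, while the neuron cultures also held transcripts of astrocyte marker genes such as Apoe (3392 and 3180) and Clu (1270 and 1608), both higher in astrocytes. The 6 astrocyte markers higher in neurons were Sparcl1 (3930 and 3809 against 639 and 593), Slc1a2 (1832 and 1865 against 431 and 379), Slc6a11 (353 and 162 against 18 and 3), Aldoc, Cldn10 and Ndrg2. In such bulk cultures fewer cells of a type and less RNA per cell cannot be told apart.

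Of the genes, 5 were higher in astrocyte cultures and both pannexins were higher in neuron cultures, while Gjb2, Gjb6 and Kcnj16 were too dim to be tested. A probe set was tested where at least 2 of the 4 arrays reached the array's median, which kept 15 of the 19 probe sets and 7 of the 10 genes, and a gene was called by its tested probe set with the highest mean. Kcnj10 was 30.0-fold higher in astrocytes, Mlc1 8.85-fold, Aqp4 6.71-fold, Gja1 1.64-fold and Hepacam 1.41-fold; Panx1 was 8.35-fold and Panx2 2.98-fold higher in neurons. Folds are on the log2(signal + 12.5) scale, which shrinks the fold of a dim gene; calls are limma adjusted p-values (Benjamini-Hochberg over 25019 probe sets) under 0.05. These calls are to be read against a background in which 62.2% of the 12040 genes tested passed, 31.1% higher in astrocytes and 31.0% higher in neurons, and 57.2% of probe sets passed. The groups did not overlap in any of the 15 tested probe sets, which is also so for 78.3% of all tested probe sets and 81.9% of genes. Kcnj10, Mlc1 and Aqp4 were at least 4-fold higher in astrocytes, as were 7.26% of all genes. Of the 15 tested probe sets, 4 (those of Panx1 and Panx2, 1 of Aqp4 and 1 of Hepacam) passed the filter on the arrays of 1 culture alone. So did a number of marker and related genes, among them the neuron markers Snap25, Dcx and Elavl4. For such genes the filter favoured the direction called.

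**Figure D1:**
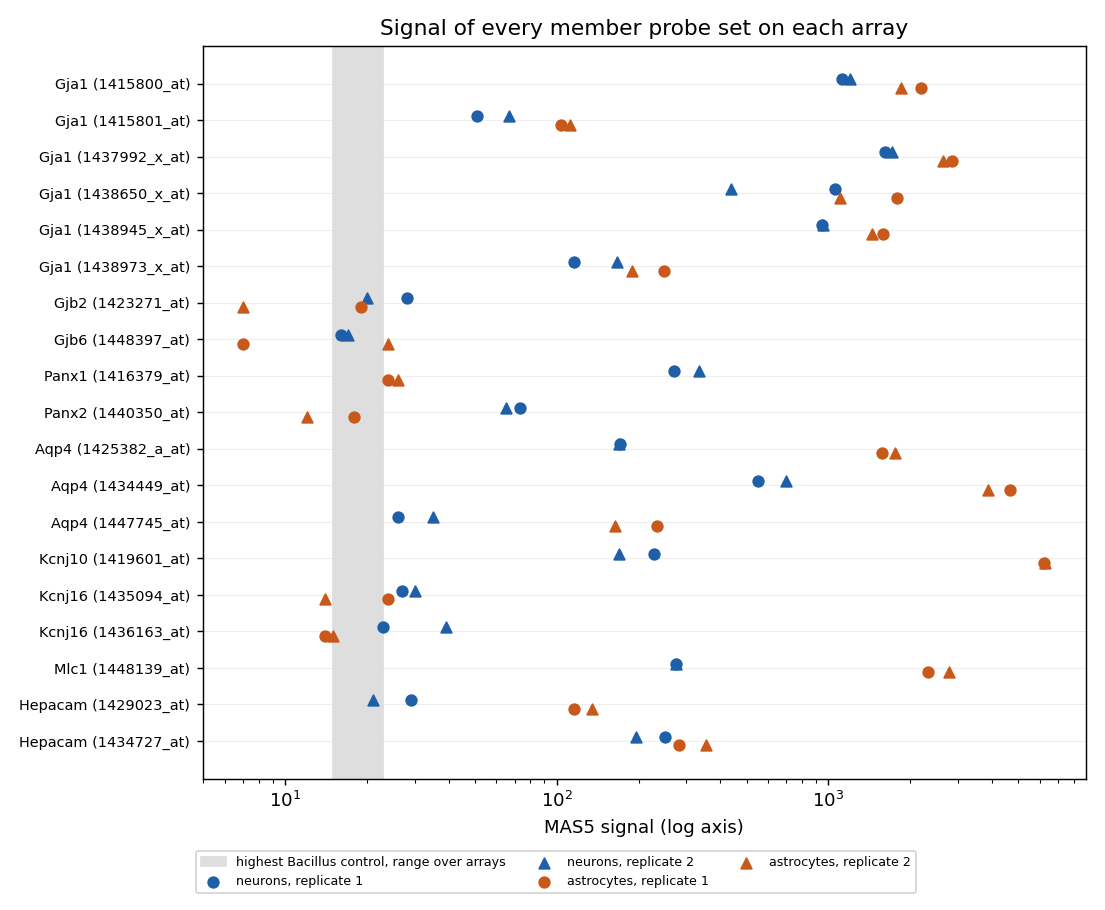
MAS5 signal (log axis) of each of the 19 probe sets on the 4 arrays; blue symbols are neurons, orange symbols astrocytes, circles replicate 1 and triangles replicate 2, and the grey band spans the background of 15 to 23. Kcnj10, Mlc1 and Aqp4 show the widest gaps toward astrocytes and Panx1 the widest toward neurons, while Gjb2, Gjb6 and Kcnj16 lie in or near the band.

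The stretches of genome just before 3 of these genes are shown because they stand for the 3 patterns seen: a wide excess in astrocytes (Kcnj10), a small one (Gja1) and an excess in neurons (Panx1). Each is the 250 bases before the annotated start, from RefSeq on GRCm38.p6, at chr1:172340960-172341209 (plus strand), chr10:56377050-56377299 (plus strand) and chr9:15045479-15045728 (minus strand), written along the gene's own strand. Capitals mark matches on either strand to GGGCGG (GC box), TTGGC (single arm of the NFI site), ACAAT (SOX core), TTCNNNGAA (STAT) or TGANTCA (AP-1).
Kcnj10: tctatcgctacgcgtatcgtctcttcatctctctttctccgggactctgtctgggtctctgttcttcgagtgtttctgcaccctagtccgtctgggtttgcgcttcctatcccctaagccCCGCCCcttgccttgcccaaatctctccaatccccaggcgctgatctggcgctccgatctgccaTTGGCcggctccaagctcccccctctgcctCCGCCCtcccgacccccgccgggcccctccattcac
Gja1: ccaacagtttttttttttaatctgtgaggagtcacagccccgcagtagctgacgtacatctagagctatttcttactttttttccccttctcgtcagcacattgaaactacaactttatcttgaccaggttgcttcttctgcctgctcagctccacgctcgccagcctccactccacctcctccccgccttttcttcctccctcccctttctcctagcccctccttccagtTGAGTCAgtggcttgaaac
Panx1: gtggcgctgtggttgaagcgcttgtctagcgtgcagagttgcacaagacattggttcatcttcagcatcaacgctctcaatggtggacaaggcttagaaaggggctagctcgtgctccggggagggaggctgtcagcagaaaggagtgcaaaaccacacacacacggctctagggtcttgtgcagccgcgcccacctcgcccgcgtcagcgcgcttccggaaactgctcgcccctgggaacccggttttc
The Kcnj10 window held 2 GC boxes, starting 130 and 36 bases before the start, and 1 NFI arm at 66 bases. The Gja1 window held 1 AP-1 match, at 19 bases, and the Panx1 window held none of the 5 motifs. Among 32851 windows of the same length in the table, 32.7% held a GC box, 41.5% an NFI arm, 27.7% a SOX core, 7.02% a STAT match and 6.75% an AP-1 match. Both the Kcnj10 and the Panx1 window held 17 CpG dinucleotides (GC content 62.0% and 59.6%), and the Gja1 window held 6 (50.0%), where the median window has 6 (52.4%). These matches describe letters only; 8 of the 10 genes had a window in the table.

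Gja1 had signals of 1623 and 1715 in neurons and 2845 and 2645 in astrocytes by its brightest probe set, or 1669 ± 65.1 against 2745 ± 141 (mean ± SD, n = 2 here and below). Both astrocyte arrays were above both neuron arrays, and the neuron mean was still 60.8% of the astrocyte mean. The difference was 0.71 on the log2 scale (SE 0.11, limma adjusted p = 0.000523). That probe set is of a kind that may match several transcripts; the brightest that is not had 1126 and 1200 in neurons and 2185 and 1849 in astrocytes, a 1.72-fold difference (limma adjusted p = 0.000688). All 6 probe sets of Gja1 were higher in astrocytes, from 1.51-fold to 2.04-fold, and the neuron mean lay between 51.7% and 64.8% of the astrocyte mean. The widest fold came from a probe set whose replicates were far apart (1054 and 439 in neurons, 1788 and 1101 in astrocytes). With no filter on dim probe sets, 4 of the 6 passed. Gja1 was thus a transcript of both cultures at this scale, with a modest excess in astrocytes; 2979 of the 12040 genes had a larger one.

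The other astroglial connexin genes lay close to background. Gjb2, which encodes Cx26, had signals of 28 and 20 in neurons and 19 and 7 in astrocytes. Gjb6, which encodes Cx30, a connexin of mature astrocytes, had 16 and 17 in neurons and 7 and 24 in astrocytes. Gjb2 was above background on 1 neuron and 1 astrocyte array, and Gjb6 on 1 astrocyte array, where its groups overlap. In the fit without the filter neither passed (limma adjusted p = 0.290 for Gjb2 and 0.845 for Gjb6), with 95% confidence intervals for the log2 difference, astrocytes minus neurons, of -1.39 to 0.29 and -1.05 to 0.81.

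Among 18 other connexin and pannexin genes, 12 had a probe set and only 2 of these were bright enough to test. Gjd2, which encodes Cx36, the connexin of electrical synapses between neurons, had signals of 210 and 171 in neurons and 9 and 7 in astrocytes, where it was not above background. It was at least 11.9-fold higher in neurons (limma adjusted p = 4.46e-06). Gjc1, which encodes Cx45, had 201 and 184 in neurons and 136 and 187 in astrocytes and did not pass (limma adjusted p = 0.286); its log2 difference ranged from -0.46 to 0.29 over the alternatives. The other 10 were too dim to be tested.

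The pannexins ran the other way. Panx1 and Panx2 reached the array median in neurons alone, so the filter favoured that direction. Without the filter the limma adjusted p was 0.000484 for Panx1 and 0.00847 for Panx2. Panx1 had signals of 270 and 334 in neurons and 24 and 26 in astrocytes, so that the astrocyte mean was 8.28% of the neuron mean. Its log2 difference was -3.06 (SE 0.19, limma adjusted p = 3.26e-06); it was -2.22 with an offset 4 times as large and -3.54 with an offset of 1. Panx2, the pannexin known from neurons of the adult brain, had 73 and 65 in neurons and 18 and 12 in astrocytes. Its log2 difference was -1.57 (SE 0.24, limma adjusted p = 0.000595), and -0.87 and -2.15 with those offsets. For both genes the neuron arrays were well apart from the astrocyte arrays, and the astrocyte signals were close to background: 1 of the 2 astrocyte arrays was above it for Panx2, and both were for Panx1. Panx1 and Gja1 therefore changed in opposite directions, and the log2 ratio of Panx1 to Gja1 within an array was -2.53 and -2.32 in neurons and -6.29 and -6.11 in astrocytes (exact permutation p = 0.333, the smallest that 2 arrays against 2 allow).

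Kcnj10 separated the cultures most widely of the 10 genes. Its signals were 228 and 169 in neurons and 6232 and 6295 in astrocytes, and the neuron mean was 3.17% of the astrocyte mean. The log2 difference was 4.91 (SE 0.15, 95% confidence interval 4.57 to 5.25, limma adjusted p = 1.38e-07), and 45 of the 12040 genes had a larger excess in astrocytes. The excess of Kcnj10 over that of Gja1 can be read within arrays: the log2 ratio of the 2 signals was -2.77 and -3.25 in neurons and 1.13 and 1.25 in astrocytes, a shift of 4.20 (exact permutation p = 0.333, again the smallest possible). Kcnj16 encodes Kir5.1, a subunit that joins Kir4.1 in mixed channels. By its first probe set it had 27 and 30 in neurons and 24 and 14 in astrocytes, and by its second 23 and 39 against 14 and 15. All of these signals were at or little above background, in both probe sets the neuron arrays were the higher ones, and neither passed without the filter (limma adjusted p = 0.347 and 0.154). Astrocytes, where Kcnj10 was high, thus had Kcnj16 signals of 14 to 24.

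Of 13 other inward rectifier genes 5 were tested, 1 higher in astrocytes, 2 higher in neurons and 2 not passing, with a median log2 difference of -0.30 (over all genes tested, -0.02). Kcnj3, a subunit of channels opened by G proteins in neurons, had 326 and 281 in neurons and 2 and 9 in astrocytes, at least 18.9-fold higher in neurons (limma adjusted p = 2.33e-06). Kcnj13, known from choroid plexus and retinal epithelium, had 25 and 23 in neurons and 99 and 96 in astrocytes, 3.02-fold higher (limma adjusted p = 0.000236). Kcnj11, the pore of ATP-sensitive channels, had 345 and 320 against 260 and 274 and did not pass (limma adjusted p = 0.0958). Of the K2P leak channel genes 4 of 10 were tested and 3 were higher in astrocytes, beside 31.1% of all genes. Among these, Kcnk13 (5 and 28 in neurons, 59 and 55 in astrocytes) reached the array median in astrocytes alone, so the filter favoured that direction. Kcnk12, with the higher signals in neurons (18 and 66 against 2 and 4), was not tested. Kcnk2 (TREK-1) had 198 and 280 in neurons and 885 and 847 in astrocytes, a 3.54-fold difference (limma adjusted p = 3.35e-05). Kcnk1 (TWIK-1) had 513 and 422 against 991 and 1027, a 2.14-fold difference (limma adjusted p = 0.000174). The products of Kcnk1 and Kcnk2 have been proposed to contribute to the passive potassium conductance of astrocytes, which was not tested.

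Aqp4 was higher in astrocytes by all 3 of its probe sets. The brightest had signals of 551 and 701 in neurons and 4668 and 3859 in astrocytes, or 626 ± 106 against 4264 ± 572. The log2 difference was 2.75 (SE 0.15, limma adjusted p = 1.57e-06). By the next the signals were 171 and 169 against 1576 and 1763, a 9.20-fold difference, and by the dimmest 26 and 35 against 234 and 164, a 4.88-fold difference. The neuron mean was thus between 10.2% and 15.3% of the astrocyte mean, depending on the probe set, and no pair of groups overlapped. Of 11 other aquaporin genes only Aqp11 was bright enough to test. It encodes an intracellular aquaporin and was higher in neurons (256 and 211 against 81 and 71, 2.77-fold, limma adjusted p = 0.000161), but without probe sets that may match several transcripts the log2 difference was -0.64 (limma adjusted p = 0.102). Aqp1, the water channel of the choroid plexus, had 12 and 20 in neurons and 28 and 20 in astrocytes, near background in both.

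**Figure D2:**
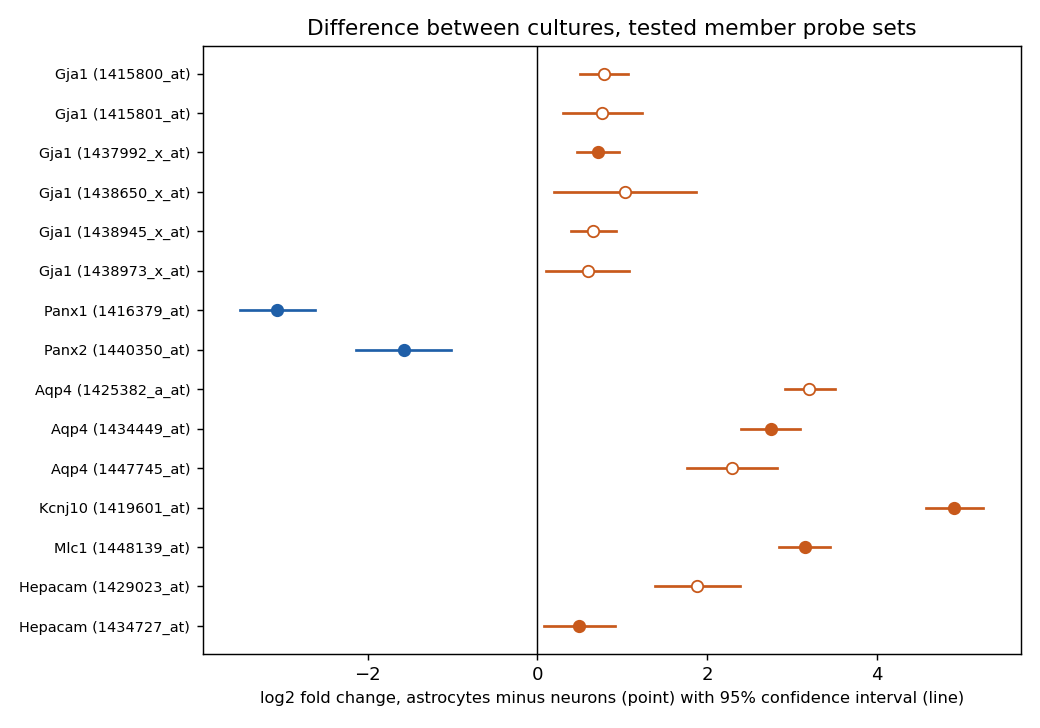
Log2 difference, astrocytes minus neurons, of the 15 tested probe sets (points) with limma's 95% confidence interval (lines); filled points are the probe sets by which a gene was called, orange is higher in astrocytes and blue higher in neurons. The interval of Kcnj10 (4.57 to 5.25) lies above those of all other probe sets shown, the 6 Gja1 probe sets lie between 0.59 and 1.03, and the 2 Hepacam probe sets differ (0.49 and 1.88).

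Genes of the dystrophin-associated complex, which anchors both Aqp4 and Kcnj10 products at endfeet, were listed together with matrix genes of agrin and laminin subunits. Most of this list was higher in astrocytes. Of 13 tested, 10 were higher there, laminin genes among them. Neurons had the higher level for 1, and 2 agrin or laminin genes missed the threshold. The median log2 difference was 1.46, beside -0.02 over all genes, of which 31.1% were higher in astrocytes and 31.0% in neurons. Utrn, which encodes utrophin, had 110 and 127 in neurons and 1161 and 1398 in astrocytes, a 9.84-fold difference (limma adjusted p = 6.77e-07). Dag1, which encodes the dystroglycan core that binds laminin, had 954 and 840 against 2321 and 2181, a 2.49-fold difference (limma adjusted p = 2.37e-05). Dtnb, the beta form of dystrobrevin, was the member higher in neurons (118 and 125 against 84 and 84, limma adjusted p = 0.0474). The call of Dtnb was lost when any 1 array was left out, with quantile normalization, with no filter and with the replicate block, with adjusted p up to 0.131.

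Mlc1 and Hepacam, whose products form 1 complex, differed in how far they moved. Mlc1 had signals of 276 and 276 in neurons and 2321 and 2779 in astrocytes, a log2 difference of 3.15 (SE 0.13, limma adjusted p = 4.35e-07). Hepacam had 250 and 196 in neurons and 283 and 355 in astrocytes by its brighter probe set, a log2 difference of 0.49 (SE 0.18, 95% confidence interval 0.08 to 0.91, limma adjusted p = 0.0430). Its dimmer probe set had 29 and 21 against 116 and 135, a log2 difference of 1.88 (SE 0.22, limma adjusted p = 0.000117). That probe set reached the array median in astrocytes alone, so the filter favoured that direction. Without the filter its limma adjusted p was 0.00329. The same limit holds for the average of the 2 probe sets given below. The Hepacam groups did not overlap by either probe set, but by the first the higher neuron array (250) was close to the lower astrocyte array (283). By the brighter probe set the Hepacam call was lost when any 1 array was left out (limma adjusted p from 0.0843 without neurons replicate 1 to 0.301 without astrocytes replicate 2, with 0.103 without astrocytes replicate 1 and 0.265 without neurons replicate 2), and with both probe sets averaged the log2 difference was 1.19 (limma adjusted p = 0.000307). Relative to Mlc1 in the same array, the log2 ratio of Hepacam (brighter probe set) was -0.14 and -0.47 in neurons and -2.98 and -2.93 in astrocytes (exact permutation p = 0.333). Mlc1 and Aqp4 moved more alike by size: their log2 ratio was -0.97 and -1.31 in neurons and -1.0 and -0.47 in astrocytes. The shift was 0.4, beside -2.65 for Hepacam to Mlc1. With 2 arrays against 2, the exact permutation p of 0.667 cannot show likeness.

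Channels and pumps tied to this complex were split. Of 8 tested genes 6 were higher in astrocytes and 2 higher in neurons, with a median log2 difference of 0.86. Over all genes the median was -0.02, with 31.1% higher in astrocytes and 31.0% higher in neurons. Clcn2, the chloride channel that GlialCAM brings to junctions, named here because it is a direct partner and after its values were seen, had 27 and 14 in neurons and 81 and 80 in astrocytes (2.87-fold, limma adjusted p = 0.00107). Slc4a4, a sodium bicarbonate cotransporter, had 983 and 747 against 3623 and 3620, a 4.18-fold difference (limma adjusted p = 5.19e-06). Lrrc8d, a subunit of volume-regulated anion channels, had 324 and 220 against 141 and 103 and was 2.10-fold higher in neurons (limma adjusted p = 0.00353). The call of Lrrc8d was lost without neurons replicate 1, astrocytes replicate 1 or astrocytes replicate 2, with adjusted p up to 0.109. Atp1b1, a sodium pump subunit found in a complex with Mlc1, had 5295 and 6759 in neurons and 3090 and 2919 in astrocytes (1.99-fold higher in neurons, limma adjusted p = 0.000244). Trpv4, a calcium channel studied with Mlc1 in swelling astrocytes and likewise named after its values were seen, was below background on all arrays (3 and 5, 3 and 3).

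Partners of Cx43 at the cell junction all passed the test, in both directions: 9 of the 13 tested were higher in astrocytes and 4 in neurons, with a median log2 difference of 1.04. Pkp2, a desmosomal plaque protein gene, had 23 and 33 in neurons and 781 and 762 in astrocytes, a 19.5-fold difference (limma adjusted p = 4.48e-07). Ctnnb1, which encodes beta-catenin, had 5577 and 5398 against 6344 and 7336, a 1.24-fold difference (limma adjusted p = 0.0332). Ctnnb1 did not pass in 5 of 12 alternatives, among them without neurons replicate 1, neurons replicate 2 or astrocytes replicate 2 (adjusted p up to 0.217). Dbn1, which encodes the actin-binding protein drebrin, had 757 and 789 against 267 and 354 and was 2.45-fold higher in neurons (limma adjusted p = 0.000155). Tjp1, the gene of the scaffold ZO-1 that binds the tail of Cx43, named after its values were seen, had 625 and 539 against 2319 and 2163, a 3.80-fold difference (limma adjusted p = 3.58e-06). Over the 7 lists of related genes, 84 of 96 genes had a probe set, 46 were tested, and of these 29 passed toward astrocytes, 11 toward neurons and 6 in neither direction. The share that passed was 87.0%, beside the 62.2% of all genes, and the median log2 difference was 0.97, beside -0.02. The lists were chosen with earlier results of these data known. Gjd2, Kcnj3, Kcnj13, Clcn2 and Pkp2, among others, passed the filter only on the arrays of the culture where they are high. The shares therefore describe the lists and test nothing. Fewer related genes (6) were higher in neurons once probe sets that may match several transcripts were left out.

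**Figure D3:**
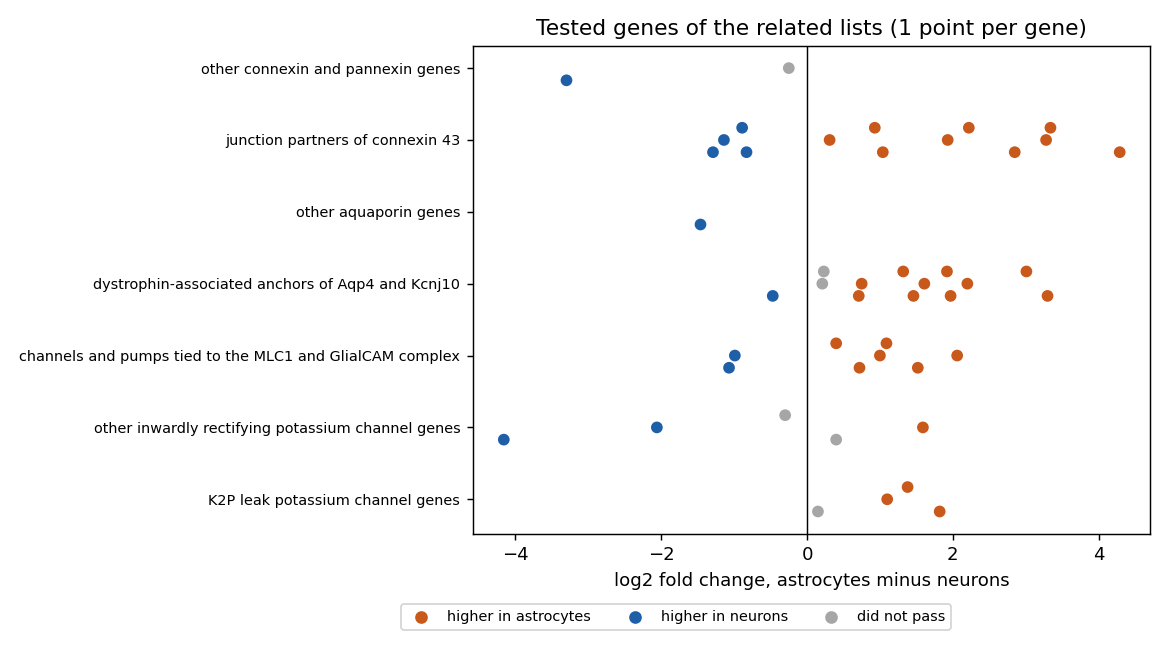
Log2 difference, astrocytes minus neurons, of the 46 tested genes of the related lists, 1 point per gene, in rows by list (the vertical offset within a row only separates points); orange passed as higher in astrocytes, blue as higher in neurons, grey did not pass. The anchors and the junction partners lie mainly to the right of 0, and the point farthest to the left, in the row of inward rectifiers, is Kcnj3 (-4.16).

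Markers of other cell types that can carry these transcripts also moved between the cultures, and their part in the differences above was not tested. Their counts stand beside 31.1% of all tested genes higher in astrocytes and 31.0% higher in neurons. Some passed the filter on 1 culture alone: Islr, Foxc1, Foxj1 and Pifo on astrocyte arrays, and Pdgfra, Mbp and Sox10 on neuron arrays, among others. For these the filter favoured the direction called. Fibroblast and meningeal markers, of interest because Gja1 and Gjb2 are also used by meningeal cells, were higher in astrocytes for 7 of 9 tested and higher in neurons for 1, with summed signals of 602 and 710 in neurons and 7548 and 7691 in astrocytes. Ogn rose from 18 and 66 to 3477 and 3368 and Islr from 29 and 32 to 2465 and 2689, whereas Dcn did not pass (290 and 391 against 255 and 261). Of the ependymal and choroid plexus markers, whose cells can use Aqp4 too, 4 of 5 tested were higher in astrocytes (summed signals 267 and 235 against 1214 and 1345), among them Foxj1 (35 and 24 against 410 and 407) and Rsph1 (78 and 65 against 261 and 300). Of the oligodendrocyte lineage markers, whose cells can use Kcnj10, 2 of 7 tested were higher in astrocytes and 4 higher in neurons, and the summed signals, to which Olig1 gave the most on every array, were 5756 and 4993 against 5557 and 6154. Those higher in neurons were Pdgfra (1177 and 1302 against 19 and 21, 38.5-fold), Mbp (420 and 431 against 16 and 16, 15.4-fold), Sox10 (73 and 69 against 21 and 13) and Cspg4 (75 and 63 against 26 and 38). Cnp had 366 and 500 against 1344 and 1536 (limma adjusted p = 3.61e-05) and Olig1 2899 and 1895 against 3500 and 3997 (limma adjusted p = 0.0137); Olig1 was lost in 5 of 13 alternatives, among them without neurons replicate 2, astrocytes replicate 1 or astrocytes replicate 2 (adjusted p up to 0.227).

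Microglia markers were higher in astrocytes for 6 of 7 tested (summed signals 162 and 231 against 949 and 978), beside 31.1% of all genes. C1qa, C1qb, C1qc, Ctss and Tyrobp reached the array median in astrocytes alone, so the filter favoured that direction. Csf1r had 47 and 40 against 149 and 151 and Ctss 3 and 28 against 295 and 272. Aif1, P2ry12, Tmem119, Itgam and Trem2 were too dim to be tested, and Cx3cr1 did not pass (limma adjusted p = 0.0504). Endothelial and mural markers were higher in astrocytes for 1 of 3 tested, Slco1a4 (10 and 60 against 4708 and 4857), which makes up nearly all of the summed signal in astrocytes (4894 and 5027) but not in neurons (155 and 223); the vessel gene Pecam1 was below background on all arrays (18 and 3 against 4 and 2), and Kdr did not pass (29 and 42 against 50 and 42, limma adjusted p = 0.331). Radial glia and progenitor markers were higher in astrocytes for 5 of 7 tested and in neurons for 1 (12871 and 12311 against 26457 and 25590). Among these Vim had 2465 and 2189 against 12518 and 11573, Nes 162 and 52 against 1131 and 1320, and Fabp7, high in both, did not pass (8615 and 8404 against 7941 and 8150).

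**Figure D4:**
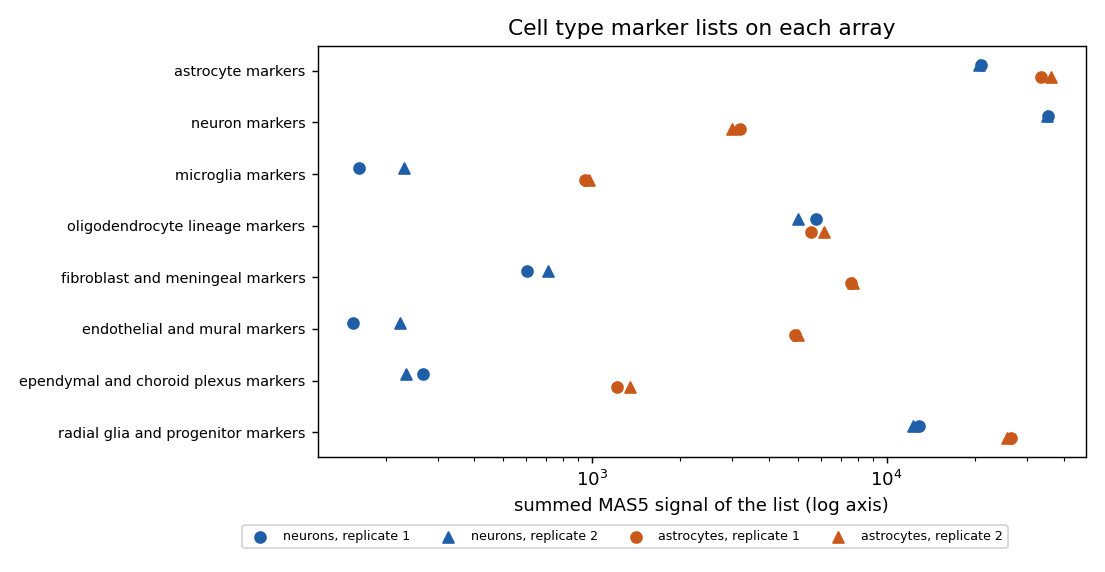
Summed MAS5 signal (log axis) of each cell type marker list on the 4 arrays; blue symbols are neurons, orange symbols astrocytes, circles replicate 1 and triangles replicate 2. Neuron markers sum to 35402 and 35036 in neurons and 3182 and 2980 in astrocytes, while astrocyte markers differ less (20863 and 20616 against 33503 and 36028).

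The neuron arrays differed from each other for Gfap, by its brightest probe set, but not in the same way for the 10 genes. Gfap, the intermediate filament gene of astrocytes, had 2 and 109 on the neuron arrays, the first below background, against 1744 and 2133 in astrocytes. That probe set may match several transcripts. All 3 tested Gfap probe sets were called higher in astrocytes. The Gfap call was lost without astrocytes replicate 1 or astrocytes replicate 2, and its log2 difference ranged from 2.79 to 7.06 over the alternatives. On the same pair of arrays Mlc1 had 276 and 276, Kcnj10 228 and 169, Hepacam 250 and 196, Aqp4 551 and 701 and Gja1 1623 and 1715. With neurons replicate 1 or 2 left out, the log2 difference of Kcnj10 was 5.11 or 4.71, that of Aqp4 2.58 or 2.92 and that of Gja1 0.67 or 0.75, all still past the threshold.

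For each gene that passed, the gene with the most similar pattern was sought by the Euclidean distance between log2 profiles over the 4 arrays after subtracting each gene's mean; with 2 cultures this likeness mainly reflects the size of the difference and how replicates deviate. The nearest gene was Lta4h for Gja1 (distance 0.0277), Gask1b for Aqp4 (0.0835), Pter for Kcnj10 (0.306), Herc6 for Mlc1 (0.113), Bbs10 for Hepacam (0.0186), Ncam1 for Panx1 (0.0831) and Rgs19 for Panx2 (0.0601). Pter had signals of 17 and 14 in neurons, which is below background, and 1011 and 842 in astrocytes, so its distance rests in part on values that were not measured above background; the same holds for Herc6 on 1 neuron array. Ncam1, the neural cell adhesion molecule gene, had 3497 and 4034 against 434 and 435.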

How the data were processed

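The deposited series table holds MAS5 intensity values, linear and per probe set; MAS5 is named in the submitters' processing notes without a version. RNA was extracted with Trizol, and 50 ng went into a 2-cycle amplification for Affymetrix arrays, per the labels' protocols. Of 45101 probe sets, 64 controls were left out; 34945 of the rest had 1 symbol, 932 several and 9160 none, and 34741 were named through their Entrez identifier. No detection calls were used. The number of arrays limits the precision, and p-values measure the spread between cultures that the titles call biological replicates.

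Signals were taken as log2(value + 12.5), the offset being the median over arrays of the 25th percentile. Probe sets at or above the array median on at least 2 arrays were kept (25019; 12040 genes). The test was limma's moderated fit with a variance trend (limma 3.58.1 under R 4.3.3, two-sided; 2 residual degrees of freedom and a prior of 6.27), adjusted by Benjamini-Hochberg over kept probe sets; it was tested on simulated data. "At least" folds are for probe sets not above the highest Bacillus control on either array of a group, computed without the offset from the higher of that control and the own signal.

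The genes and lists were chosen with earlier results of these data known. The text names all 10 genes by every probe set; from each related list, among called genes whose groups do not overlap, the largest fold in each direction, and the highest mean; from each marker list the 2 highest means and the first entry; and the nearest gene of each called member. Other genes named were chosen after their values were seen. They were Aqp1, Clcn2, Trpv4, Tjp1, Kcnk12, Kcnk13, Gap43, Snap25, Dcx, Elavl4, Foxc1, Pifo, further microglia markers, and the astrocyte and oligodendrocyte markers higher in neurons. Alternatives were other offsets, filters, normalization, variance model and probe set choices, a replicate block and leaving out each array.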

Additional observations from a re-analysis of the deposited data

How the results depend on the processing

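Across 13 alternatives none of the 7 tested genes among the 10 changed direction; of 90 values recomputed for them, 83 kept their side of the threshold and 7, all of Hepacam, did not. Hepacam had adjusted p = 0.0534 with an offset of 1, 0.109 with no filter and 0.0760 without the mean-variance trend, besides the 4 fits without 1 array. With the filter at the 75th percentile Panx2 was not tested, so that 1 gene rather than 2 was higher in neurons, and without probe sets that may match several transcripts 6 rather than 11 related genes were higher in neurons, of 38 rather than 46 tested. With 1 array left out, 4 of the 10 genes were higher in astrocytes and 2 in neurons, and of the related genes 23 to 25 and 8 to 9. Same-numbered arrays of the cultures did not deviate together (correlation of deviations -0.0901), so the numbers were not taken to pair them; with the replicate block 5 and 2 of the 10 genes and 29 and 10 related genes were called. Signals within about the background of 15 to 23 limit what can be said of Gjb2, Gjb6 and Kcnj16.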
